A study of Drosophila melanogaster with 21 samples.

Results

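The promoter peaks described here were the ATAC-seq peaks that lay over the annotated start site of a gene listed in the RNA table (distance 0 to the start site, nearest gene symbol present among the expressed genes). The rule used annotation and the presence of the gene in the RNA table, not any change with age. It found 5079 of 26121 peaks, belonging to 4608 of the 7076 genes of the RNA table. A further 1092 peaks lay over start sites of genes that the RNA table does not list. Most of the genes, 4209, had 1 promoter peak, while 342 had 2, 45 had 3, 9 had 4 and 3 had 5. The promoter peaks were wider than the rest, with a median width of 660 bp (200 to 3648 bp) against 425 bp.

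ATAC-seq reads mark DNA that a transposase can reach, and active promoters usually lie in such open chromatin, where RNA polymerase and general transcription factors assemble next to a nucleosome-depleted start site. Regulation that differs between cell types and ages is often read from enhancers, while promoters of many broadly used genes stay accessible. Genes with several start sites can use alternative promoters, which give different transcripts of the same gene.

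The libraries came from L1 neurons of wild-type Drosophila melanogaster, sorted by flow cytometry from pupal brains 40 h, 60 h or 72 h after pupariation began. L1 neurons are lamina interneurons that receive photoreceptor input, and these ages cover the pupal period in which their wiring forms. There were 2 ATAC-seq libraries at each age, and 2, 3 and 2 RNA-seq libraries at 40 h, 60 h and 72 h. The markers used for the sort, and whether libraries came from separate animals, were not given, so a p-value here speaks of the scatter among these libraries, which may be technical. ATAC and RNA came from different libraries, and the remaining 8 samples, single-cell libraries, were not analysed here.

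Levels are RPKM, reads per kilobase of peak or gene scaled per library, and changes are differences of log2(RPKM + 1), a scale that understates the change of low features. A peak is said to open or close, and a gene to rise or fall, where limma gave an adjusted p under 0.05 over all peaks or genes of the table. ATAC libraries held 12711159 to 19788421 reads in peaks, a median of 530 to 794 reads per promoter peak, and RNA libraries 22515998 to 39535020 reads, a median of 1230 to 2559 per gene with a promoter peak. The test covered 5029 of the promoter peaks (50 lay in the lowest 10% of level) and 4565 of their genes (43 were too low), and 4983 peaks of 4525 genes had both.

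RNA of svp, a transcription factor gene used as an L1 marker, read 109 to 139 RPKM over the 7 RNA libraries, and VGlut, the glutamate transporter gene, read 207 and 225 RPKM at 40 h, 282 to 330.1 at 60 h, then 700 and 519 at 72 h. Of elav and nSyb, which mark neurons in general, elav went down, from 74.1 and 63.4 RPKM at 40 h to 23.03 to 25.6 at 60 h. At 72 h elav read 23.3 and 21.9 RPKM. In contrast nSyb read 251 and 267 RPKM at 40 h, 427 to 481 at 60 h, then 807 and 644 at 72 h. Together with svp and VGlut they summed to 657 to 671 RPKM at 40 h, 854 to 939 at 60 h and 1307 to 1669 at 72 h. The rise of this sum came from VGlut and nSyb. Glial markers (11 genes) summed to 26 to 42.4 RPKM at 40 h, 44.5 to 87.6 at 60 h and 556 to 1684 at 72 h, and photoreceptor markers (14 genes) to 46.3 to 134, 183 to 688 and 175 to 260. Only 2 of the 11 glial and 3 of the 14 photoreceptor genes had a promoter peak. The 2 glial promoter peaks summed to 103 to 125 RPKM at 40 h and to 68.7 to 78.7 at 72 h, so they did not rise with the glial RNA. Hemocyte markers (5 genes) summed to 359 to 366 RPKM at 40 h, 270.01 to 414 at 60 h and 105 to 128 at 72 h. Markers of GABAergic and monoaminergic neurons (5 genes) summed to 33.4 to 36.5 RPKM at 40 h, 58.9 to 98.5 at 60 h and 77.8 to 91.5 at 72 h, and those of other lamina neurons (6 genes) to 8.56 to 11.3, 7.40 to 17.5 and 28.3 to 37.2. Progenitor markers and those of muscle and fat body stayed under 5 RPKM in every library. The part of these cells in the changes below was not tested. In such bulk samples, fewer cells of a type and less RNA per cell cannot be told apart.

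Among ATAC libraries, the 72 h pair stood apart from each other at promoters. Across promoter peaks the 72 h libraries correlated at 0.826 on the log2 scale, below the 0.869 of replicate 1 at 60 h with replicate 1 at 72 h and the 0.895 of replicate 2 at 60 h with replicate 2 at 72 h. The 40 h libraries correlated at 0.977 and the 60 h libraries at 0.924. The ATAC scaling also moved the results. With levels scaled to all reads in peaks instead of as deposited, the median change of all peaks shifted on the log2 scale by 0.23 from 40 h to 60 h, by 0.16 from there to 72 h, and by 0.40 over the whole span, so the main counts of opened and closed promoters are given for both and for quantile normalization. Values with no scaling named are as deposited.

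Promoter peaks varied less between ages than the other peaks did. The median promoter level was 69.0 RPKM at 40 h, 65.2 at 60 h and 56.4 at 72 h, while that of the other peaks was 35.0, 38.4 and 43.2. Between libraries of different ages the SD of the log2 difference was 0.30 to 0.68 at promoters and 0.41 to 1.34 at the other peaks, and it was lower at promoters in each such pair of libraries. Between the libraries of 1 age it was 0.21 against 0.34 at 40 h, 0.26 against 0.48 at 60 h, and 0.354 against 0.352 at 72 h. No test of this difference in spread with the library as the unit was made.

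From 40 h to 60 h, 154 promoter peaks opened and 363 closed of 5029, which is 3.06% and 7.22%, beside 10.7% and 16.0% of all peaks tested. Scaled to the reads, 473 opened and 244 closed, beside 17.4% and 13.2% of all peaks. Under quantile normalization 297 opened and 156 closed, beside 9.27% and 11.9% of all peaks, so the balance of the directions turned with the scaling. The count of openings fell to 73 without 40 h replicate 1 and to 87 without 40 h replicate 2. Closings numbered 118 without 40 h replicate 2, 598 without 60 h replicate 1 and 191 without 60 h replicate 2.

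From 60 h to 72 h, 3 promoters opened and 135 closed, or 0.0597% and 2.68%, beside 0.723% and 4.39% of all peaks. Scaled to the reads these were 10 and 75 (all peaks 0.821% and 2.34%), and by quantile normalization 23 and 194 (all peaks 1.74% and 5.78%). With a crossed replicate block, added after the data were seen, 15 opened and 819 closed. This block swapped the 40 h replicate numbers, a pairing in which these same libraries deviated together, so its calls are not an independent check. Closings rose to 504 without 60 h replicate 2, and were 54, 42, 62 and 29 without 40 h replicate 2, 60 h replicate 1, 72 h replicate 1 and 72 h replicate 2. Openings were 10 without 60 h replicate 2 and 1 without either 40 h replicate or without 72 h replicate 2.

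Over the whole span, 72 h against 40 h, 218 promoter peaks opened and 1572 closed, or 4.33% and 31.3%, beside 26.0% and 29.4% of all peaks. The excess of closings belonged to the deposited scaling: 1010 opened and 848 closed when scaled to the reads (all peaks 43.0% and 20.8%), and 593 and 588 under quantile normalization (all peaks 21.05% and 22.0%). Relative to all peaks, the promoter median moved by −0.33 under the deposited scaling and by −0.11 under quantile normalization. Openings numbered 111, 103, 116 and 96 without 40 h replicates 1 and 2 and 72 h replicates 1 and 2, and closings 791 without 40 h replicate 2 and 835 without 72 h replicate 2. Peaks beyond 10 kb from a start site differed in balance, with 3605 opened and 2132 closed of 9120 (5317 and 1695 scaled to the reads, 2528 and 1949 by quantile normalization). The excess of closings was not particular to promoters of expressed genes. Start-site peaks of genes not in the RNA table had 114 opened and 427 closed of 1039 (230 and 277, then 99 and 298, under the other scalings). As deposited, peaks within 2 kb had 833 opened and 1146 closed, and those from 2 to 10 kb 1338 and 1631.

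**Figure D1:**
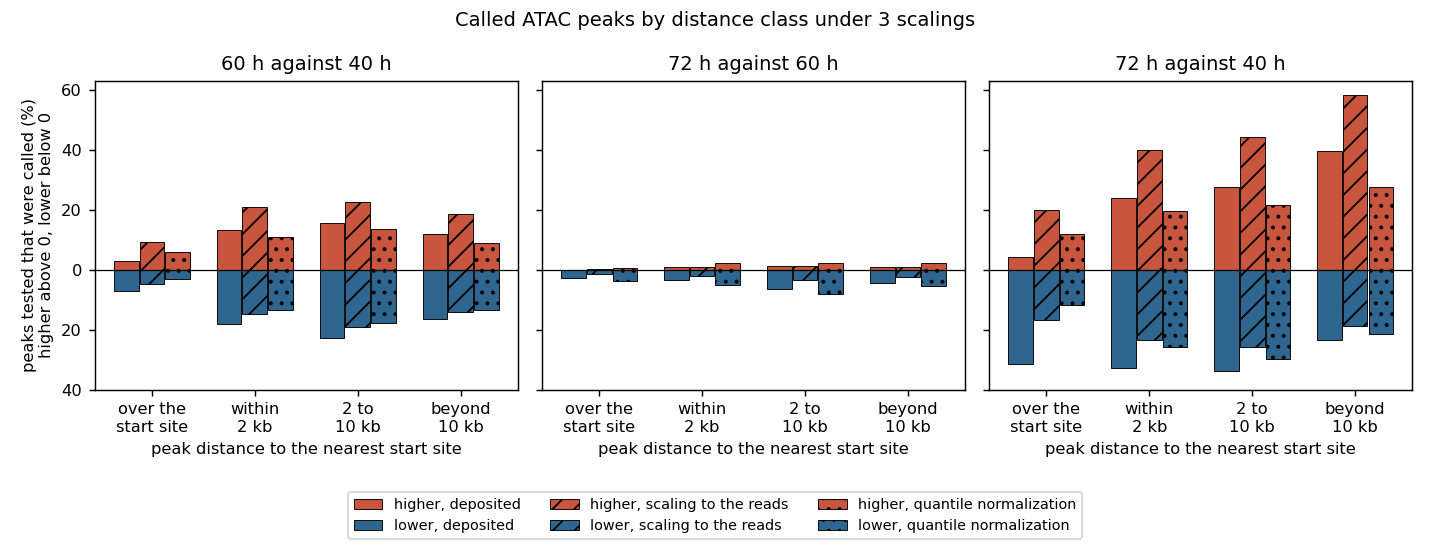
Share of ATAC peaks tested that were called higher (red, above 0) or lower (blue, below 0) in %, for peaks over the start site of an expressed gene and for peaks at 3 distances from a start site, in 3 comparisons of ages. Plain, hatched and dotted bars are the deposited scaling, scaling to the reads and quantile normalization; promoter bars reach 31.3% (closed, 72 h against 40 h, deposited), and the promoter split between higher and lower changes with the scaling.

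The share of all in-peak reads that fell in promoter peaks does not depend on the scaling. It was 33.3% and 33.7% at 40 h, 36% and 31.2% at 60 h, then 32.2% and 28.8% at 72 h. Both 40 h shares lay above both 72 h shares, and the 60 h shares overlapped those of both other ages. An exact two-sided permutation test over the ages gave p = 0.533, where 3 groups of 2 cannot go below 0.0667. The median log2 level of promoter peaks minus that of the other peaks was 0.76 and 0.91 at 40 h, 0.92 and 0.42 at 60 h, then 0.50 and 0.19 at 72 h, with an exact permutation p of 0.467. The 40 h libraries both lay above both 72 h libraries in this difference under the deposited scaling. Under quantile normalization it was 0.63 and 0.58 at 40 h and 0.71 and 0.32 at 72 h, so the ages overlapped (exact permutation p = 0.8).

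A promoter's level said little about the RNA level of its gene, and somewhat more at the later ages. Taking the highest promoter peak of each gene, Spearman's rho across 4565 genes was 0.12 at 40 h, 0.17 at 60 h and 0.24 at 72 h; genes share libraries and are not independent. In the tenth of genes with the lowest RNA, the median promoter level was 70.4 RPKM at 40 h, 60.1 at 60 h and 45.0 at 72 h. In the tenth with the highest RNA it was 80.8, 79.7 and 68.7. Genes with a promoter peak had a median RNA level of 20.7, 21.3 and 20.3 RPKM at the 3 ages, against 10.3, 10.0 and 10.2 for the 2468 genes without one.

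The RNA of the genes with a promoter peak was called in its own fit, with other libraries. From 40 h to 60 h, 1259 of 4565 genes rose and 1031 fell, or 27.6% and 22.6%, beside 25.2% and 22.5% of all genes tested. From 60 h to 72 h, 776 rose and 851 fell (17% and 18.6%, beside 16.6% and 16.4%), and 498 rose without 72 h replicate 1. Over the whole span 1419 rose and 1381 fell (31.1% and 30.3%, beside 30.2% and 29.1%). Scaled to the recovered reads, the median RNA change of all genes shifted by −0.23, −0.16 and −0.40, and 1609, 1298 and 2113 genes fell.

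Most promoters of genes whose RNA changed were not called themselves, and whether risen or fallen genes were matched more often turned with the scaling. From 40 h to 60 h, promoters closed at 177 of the 1160 peaks whose gene fell (15.3%) and opened at 12. At the 1403 peaks whose gene rose, 103 promoters opened (7.34%) and 47 closed. With ATAC scaled to the reads, 11% of the fallen closed and 18.2% of the risen opened, and by quantile normalization 7.16% and 13.6%. Of 339 peaks called in both assays, 280 had the same direction (82.6%). That share was 74.5% without 60 h ATAC replicate 1, 87.9% without replicate 2, and 83.5% and 87.5% when scaled to the reads and by quantile normalization. From 60 h to 72 h, 72 of 78 peaks called in both had the same direction, of which 70 fell and closed and 2 rose and opened, a share of 92.3% that was 72.1% without 60 h ATAC replicate 2. Over the whole span 734 of 1185 had the same direction (61.9%), and 67.0% and 76.9% under the other scalings of ATAC. These shares also depend on how unequal the calls were. Of the peaks with both assays, 350 closed and 154 opened from 40 h to 60 h. From 60 h to 72 h 131 closed and 3 opened, and over the whole span 1536 and 218. The shares that such unequal calls alone would give were not worked out. The shares therefore do not rank how closely promoter and RNA moved together. At the 1584 peaks whose gene rose over that span, 128 promoters opened (8.08%) and 422 closed (26.6%). At the 1883 peaks whose RNA was not called, 3.24% opened and 26.98% closed. Closings thus outnumbered openings in both groups, with a similar share closed and a higher share opened at risen genes. For the risen genes, 416 opened and 183 closed when scaled to the reads, and 329 and 101 by quantile normalization. At the 1516 peaks whose gene fell, 606 closed and 29 opened, with 393 and 215 scaled to the reads and 287 and 84 by quantile normalization.

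From 40 h to 72 h, promoters of the genes with the largest RNA falls closed in most cases under each scaling. RNA fell by at least 4 on the log2 scale from 40 h to 72 h for the genes of 57 promoter peaks, and 53 of these closed, none opened, and their median promoter change was −1.28. Scaled to the reads 48 closed and 1 opened, and by quantile normalization 45 closed and none opened. RNA rose by at least 4 for the genes of 81 promoter peaks, of which 24 opened, 23 closed and the others were not called, with a median promoter change of −0.08. In that group 39 opened and 8 closed when scaled to the reads, and 41 and 5 by quantile normalization. From 40 h to 60 h, 19 of 31 promoter peaks of genes whose RNA fell by at least 4 closed (16 and 12 under the other scalings), and 19 of 47 of genes whose RNA rose by at least 4 opened (27 and 26). The difference between risen and fallen genes was not tested. Over 40 h to 72 h, the whole set of promoter peaks had a median change of −0.29, with 0.11 and −0.05 under the other scalings.

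Promoter peaks were also present at genes with little RNA. Of all 5079 promoter peaks, 1698 also overlapped another gene in the reference annotation, so such a peak cannot be assigned to 1 gene only. Among 39 genes under 2 RPKM at 40 h whose RNA was at least 8 times higher at 72 h, the median RNA went from 0.731 to 10.6 and 27.5 RPKM. Their median promoter level was 64.6 RPKM at 40 h, beside 68.0 for all genes with a promoter peak, and 92.9 at 60 h and 80.1 at 72 h. The 25th percentile of these promoters at 40 h was 23.7 RPKM, against 45.2 for all genes. Of 37 tested, 15 opened and 11 closed over the whole span (22 and 2 scaled to the reads, 19 and 0 by quantile normalization). In the reverse group, 42 genes under 2 RPKM at 72 h whose RNA had been at least 8 times higher at 40 h, the median promoter level went from 120.3 to 68.0 and 43.8 RPKM, and 38 of 42 closed (35 and 34 under the other scalings). For 127 genes under 2 RPKM at both 40 h and 72 h, the median promoter level went from 73.7 to 60.3 and 43.99 RPKM, and 5 opened and 66 closed of 123 tested (13 and 45, then 8 and 46, under the other scalings). Among all genes with a promoter peak, 182 opened and 1316 closed of 4525 tested (928 and 696, then 537 and 454). These groups take the highest promoter peak of each gene by mean level over all libraries.

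**Figure D2:**
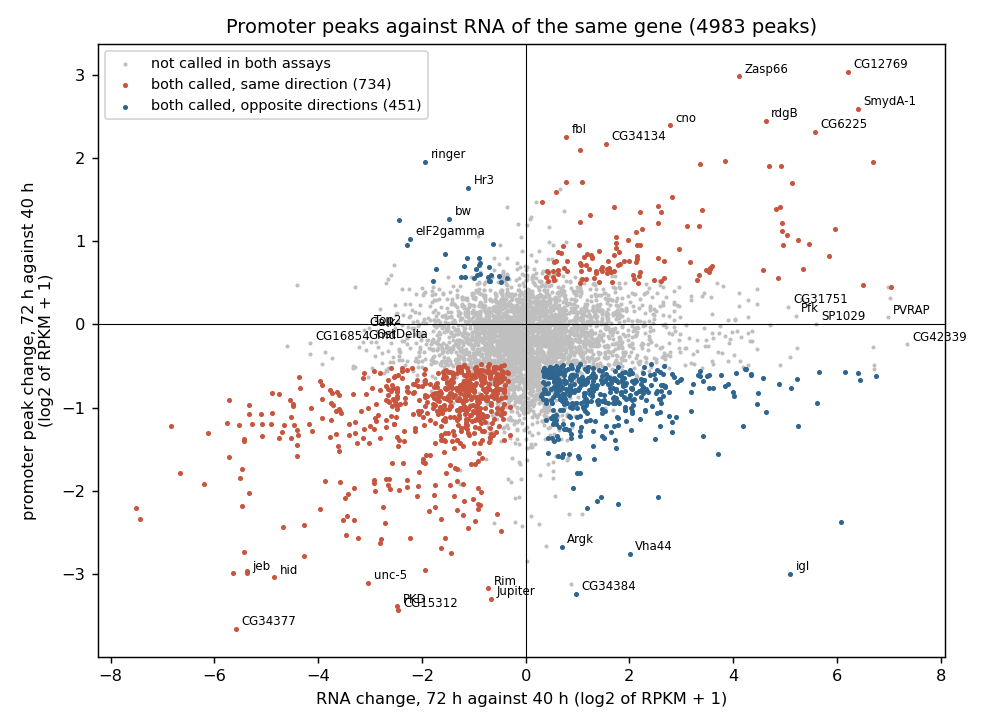
Change of each promoter peak (vertical axis) against the RNA change of its gene (horizontal axis), 72 h against 40 h, both as log2 of RPKM + 1 under the deposited scaling; each point is 1 of 4983 peaks. Red points were called in both assays in the same direction (734), blue points in opposite directions (451), and most of the blue points lie at risen RNA with a closed promoter; named peaks are those of the rule for named genes.

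CG12769, whose role the sources used here do not give, had the largest opening among promoters whose RNA rose from 40 h to 60 h. Its promoter peak (2R:8058412-8058906) read 11.6 and 10.6 RPKM at 40 h, 138 and 132 at 60 h, then 95.9 and 101 at 72 h. Its RNA read 1.72 and 0.835 RPKM at 40 h, 234, 248 and 220.1 at 60 h, then 171 and 157 at 72 h. Both assays were low in each 40 h library and high in every later one, with changes of 3.49 (SE 0.20, adjusted p = 5.92e-06) and 6.72 (SE 0.16, adjusted p = 4.89e-10) from 40 h to 60 h. Pka-C3, which encodes a catalytic chain of the kinase activated by cAMP, had 2 promoter peaks, of which that at 3L:15952870-15953371 opened. It read 22.4 and 17.7 RPKM at 40 h, 142 and 114 at 60 h, then 74.9 and 85.3 at 72 h, while the RNA went from 1.28 and 1.97 to 284 and 258 RPKM at 72 h. These promoters had their highest level at 60 h, but neither of the changes from 60 h to 72 h passed the test (adjusted p = 0.19 and 0.0998).

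Other promoters that opened as RNA rose from 40 h to 60 h were those of fray, a Ste20-family kinase gene (change 2.79), SmydA-1 (2.78), Zasp66, known as a muscle Z-disc gene (2.61), CG6225 (2.50) and cno, the gene of the junction protein canoe (2.28). They all lay near or below 20 RPKM at 40 h. rdgB, a phosphatidylinositol transfer protein of photoreceptors and also in the photoreceptor marker list, opened at X:13767601-13767980 from 10.5 and 12.9 RPKM at 40 h to 67.2 and 76.8 at 60 h. Its RNA rose from 2.87 and 2.82 to 49.2, 66.0 and 52.4 RPKM, and the summed photoreceptor markers rose between the same ages, as given above.

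Fhos, a formin gene that acts on actin, opened only in the later step. Its promoter peak (3L:8766121-8766879) read 23.3 and 26.8 RPKM at 40 h, 24.8 and 29.1 at 60 h, then 90.7 and 77.4 at 72 h. Its RNA read 0.335 and 0.266 RPKM at 40 h, 0.323, 1.5 and 1.02 at 60 h, then 45.8 and 43.2 at 72 h. Both 72 h libraries lay above all earlier ones in each assay, with changes from 60 h to 72 h of 1.61 (SE 0.22, adjusted p = 0.0085) and 4.59 (SE 0.29, adjusted p = 3.68e-06). Besides it, CG5079 opened as its RNA rose in that step (1.51, adjusted p = 0.0169), a call that was lost without either 40 h replicate or without 72 h replicate 2 (adjusted p = 0.0521, 0.0585 and 0.132).

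hid, a gene that promotes cell death, closed in the earlier step. Its promoter peak (3L:18185536-18186210) read 196 and 237 RPKM at 40 h, 30.8 and 26 at 60 h, then 28.7 and 22.4 at 72 h. Its RNA read 40.7 and 47.9 RPKM at 40 h and between 0.0715 and 0.601 in the later libraries. The 40 h libraries stood above all others in both assays, with changes of −2.89 (SE 0.22, adjusted p = 1.13e-05) and −5.12 (SE 0.26, adjusted p = 9.59e-08) to 60 h. The cell adhesion gene kirre and sick, RhoGAP100F and PKD, a protein kinase gene, also closed by more than 2 on the log2 scale at 1 of their promoter peaks while their RNA fell.

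Shawl, a voltage-gated potassium channel gene, closed in the later step. Its promoter peak (2L:9414853-9415442) read 114 and 143 RPKM at 40 h, 113 and 101 at 60 h, then 23.7 and 22.2 at 72 h. RNA of Shawl was already lower at 60 h, with 70.1 and 76 RPKM at 40 h, 27.3, 23.3 and 21.9 at 60 h, then 1.55 and 2.24 at 72 h. From 40 h to 60 h the RNA fell by 1.56 (adjusted p = 2.93e-05), while the promoter change of −0.26 did not pass the test (adjusted p = 0.369). From 60 h to 72 h its RNA fell by 3.12 and its promoter by 2.17. jeb, which encodes a secreted ligand of the Alk receptor, fell from 287 and 384 RPKM at 40 h to 39.9 and 41.8 at 72 h at 1 of its 2 promoter peaks (change −2.99) and by 5.38 in RNA. unc-5, a netrin receptor gene, closed at 2R:15340256-15340760 in both steps (−1.53 and −1.58) as its RNA fell (−0.97 and −2.07).

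Some promoters closed while RNA rose. igl, a gene for a neuronal calmodulin-binding protein, had a promoter peak (2R:15155167-15155851) at 128 and 139 RPKM at 40 h, 14.3 and 16 at 60 h, then 18.9 and 13.2 at 72 h. Its RNA read 57.1 and 59.4 RPKM at 40 h, 829, 962 and 926 at 60 h, then 2288 and 1806 at 72 h. The groups did not overlap in either assay between 40 h and the later ages, and the changes to 60 h were −3.06 (SE 0.25, adjusted p = 1.32e-05) and 3.93 (SE 0.12, adjusted p = 4.54e-09). Vha44, a subunit of the vacuolar proton pump, had a promoter peak (2R:16333651-16334526) that closed, from 135 and 155 RPKM to 18.5 and 22.6, a change of −2.76. RNA of Vha44 rose from 52.9 and 50.5 RPKM at 40 h to 228 and 196 at 72 h.

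Other closings with risen RNA held less well. Argk, the arginine kinase gene, closed by 2.67 at 1 of its 4 promoter peaks, while its RNA rise of 0.69 was −0.09 under quantile normalization. The RNA rise of CG34384 (0.96, adjusted p = 0.0212) was lost without 40 h replicate 1 (adjusted p = 0.104), without 72 h replicate 1 (adjusted p = 0.0828) and scaled to the reads (adjusted p = 0.0569). In the other direction, ringer, a microtubule-associated gene, opened at 3L:16356377-16356576 from 17.2 and 10.4 RPKM to 48.3 and 62.4, as its RNA fell from 313 and 298 to 72.5 and 86.7 RPKM. Another promoter peak of ringer closed over the same span, so not all of its promoters moved against its RNA. eIF2gamma, a translation initiation gene, opened by 1.03 as its RNA fell by 2.22, and this peak also overlapped Su(var)3-9 in the reference annotation.

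Some genes were picked for a large RNA change over a promoter that was not called and lay within 0.25 of no change under the deposited scaling. CG42339 had the largest RNA rise among them from 40 h to 72 h. Its promoter peak (X:11039466-11040206) read 70.9 and 91.4 RPKM at 40 h, 102 and 99.5 at 60 h, then 70.1 and 66.0 at 72 h, while its RNA read 3.78 and 2.52, then 363, 475 and 445, then 695 and 638 RPKM. The promoter values of 40 h and 72 h nearly met, with a change of −0.24 (SE 0.20, adjusted p = 0.32) beside an RNA change of 7.35 (SE 0.17, adjusted p = 8.09e-10). PVRAP (RNA change 6.98) and Pfk, the glycolytic enzyme phosphofructokinase (5.21), had promoter changes of 0.09 and 0.10 with an SE of 0.21 and 0.18. Under the other scalings the promoter change of CG42339 was 0.16 and 0.18 and was not called. PVRAP and Pfk were called as opened there: PVRAP by 0.49 (adjusted p = 0.0233) scaled to the reads and 0.44 (adjusted p = 0.0448) by quantile normalization, Pfk by 0.51 (adjusted p = 0.0103) and 0.70 (adjusted p = 0.00416).

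Among falls over such promoters, plum, an immunoglobulin-family gene with a role in axon pruning, went from 37.1 and 32.7 RPKM at 40 h to 0.389, 0.798 and 0.548 at 60 h in RNA. Its promoter (3R:26534679-26535755) read 80.4 and 92.2 RPKM at 40 h and 81.8 and 69.7 at 60 h, which overlap. drl, a Wnt5 receptor of the Ryk family, fell by 2.96 in RNA with a promoter change of 0.25 (SE 0.21), and Nrt, an adhesion gene, by 3.14 with −0.23 (SE 0.31). The promoter of drl was called as opened under the other scalings, by 0.48 in each (adjusted p = 0.0428 and 0.038), while those of plum (0.05 and 0.08) and Nrt (0.01 and −0.03) were not called. An uncalled promoter change does not show that the promoter stayed the same, and the interval of each is wide with 2 libraries an age.

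**Figure D3:**
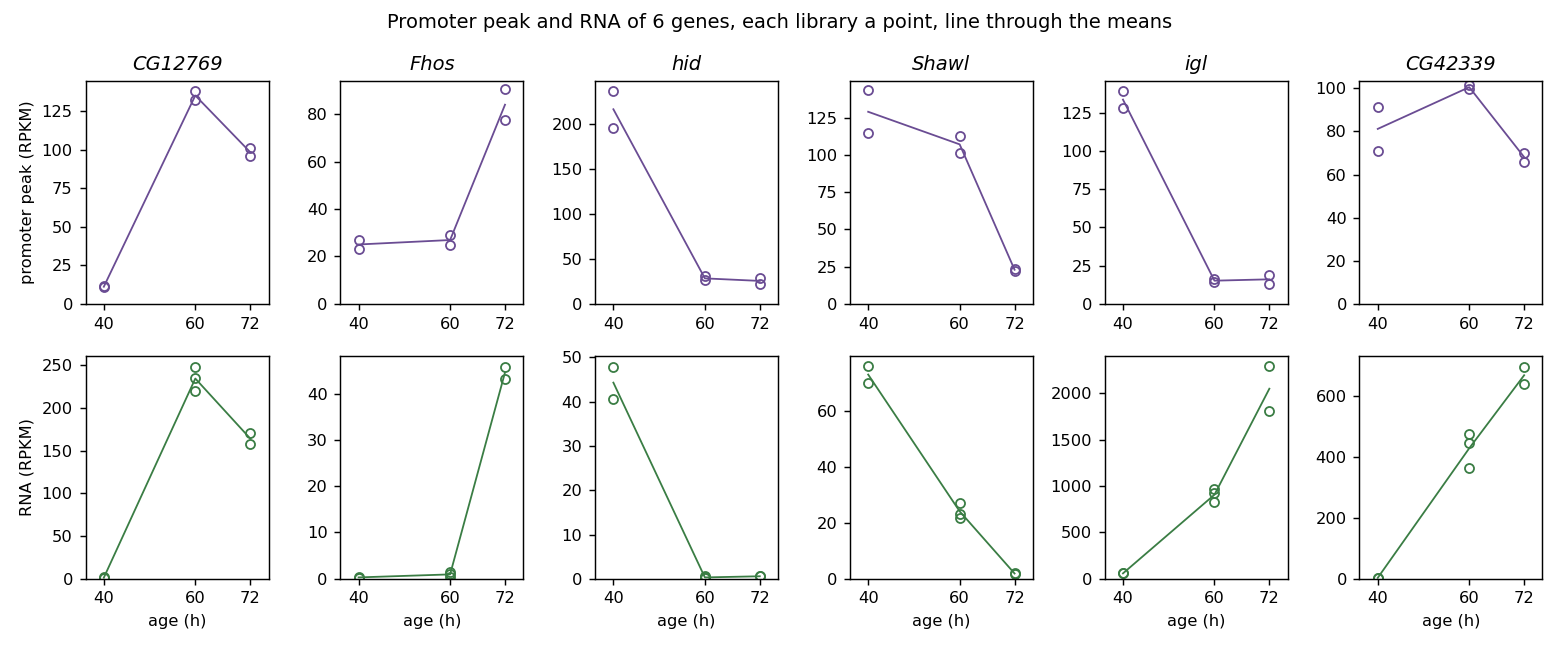
Promoter peak level (top row) and RNA level (bottom row), both in RPKM, against age in h for 6 genes; each circle is a library and the line joins the means. CG12769 rose in both assays by 60 h and Fhos by 72 h, hid and Shawl fell in both, igl fell at the promoter from 128 and 139 to 18.9 and 13.2 RPKM while its RNA rose, and CG42339 rose in RNA over a promoter between 66.0 and 102 RPKM.

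Gene lists differed in how far promoter and RNA moved together (72 h against 40 h, peaks tested). Median promoter levels at 40 h also differed. They were 106 RPKM for adhesion and guidance, 140 for presynaptic and 175 for lamina neuron transcription factor genes. Oxidative phosphorylation read 57.2 RPKM, mitochondrial ribosome 44.8 and splicing factors 61.9. Across all promoter peaks the 75th percentile went from 111 RPKM at 40 h to 76.2 at 72 h, and the 25th from 45.6 to 42.7. The part of the 40 h level in the changes of the lists was not tested. The lists were drawn up with earlier results of these data known, so their counts describe and do not test them. They stand beside 4.33% opened and 31.3% closed among all promoter peaks (20.1% and 16.9% scaled to the reads, 11.8% and 11.7% by quantile normalization), and 31.1% risen and 30.3% fallen among genes with a promoter peak, and counts near these shares say nothing of a list. Adhesion and guidance genes went down in both: 66 of 91 promoter peaks closed and none opened, with a median of −0.85, and 41 of 77 genes fell while 15 rose. The closings numbered 45 against 3 openings when scaled to the reads and 38 against 1 by quantile normalization, so the direction of the list did not turn. jeb and unc-5 had the largest changes of this list. Of 31 promoter peaks of lamina neuron transcription factors, 25 closed and none opened (19 against 2 and 12 against 1 under the other scalings), and 9 of 24 genes fell while 3 rose. Of these, hth, a homeodomain gene, closed by 2.2 as its RNA fell by 1.75.

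Genes of oxidative phosphorylation rose in RNA. All 47 with a promoter peak rose in RNA, with a median change of 1.67, while 7 of 48 promoter peaks opened, 2 closed and the median change was 0.03. Scaled to the reads 20 opened and 1 closed with a median of 0.43, and by quantile normalization 11 and 0 with a median of 0.18, beside medians of all promoter peaks of −0.29, 0.11 and −0.05. Within this list ATPsynG, an ATP synthase subunit, opened from 39.8 and 37.6 RPKM at 40 h to 75.4 and 73.0 at 72 h, and ATPsynC, another, closed from 218 and 283 to 124 and 131, a fall of 0.96 (adjusted p = 0.00168) that was −0.04 under quantile normalization (adjusted p = 0.734). The 12 vacuolar ATPase genes all rose (median 1.91) with a promoter median of −0.02, and 0.39 under both other scalings; 1 of their promoters opened and 2 closed, against 5 and 2 scaled to the reads and 3 and 1 by quantile normalization. RNA of 37 of 39 mitochondrial ribosome genes rose (0.86), with a promoter median of −0.08, and 0.32 and −0.04 under the other scalings. Of their promoters 1 opened and 2 closed, against 12 and 0, then 3 and 0. Splicing factor genes fell in 25 of 27 cases (median −1.33), with 4 of 27 promoter peaks closed and none opened (1 closed against 3 opened, and 1 against 1, under the other scalings).

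Promoters and RNA of presynaptic and voltage-gated channel genes moved apart under the deposited scaling. Presynaptic genes rose in RNA in 27 of 35 cases and fell in 5, with a median of 1.00, while 28 of 43 promoter peaks closed and 1 opened (median −0.69). That excess was 12 against 3 when scaled to the reads and 3 against 4 by quantile normalization, so it turned with the scaling. Rim, an active-zone scaffold gene, had the largest closing of the list: its promoter (3R:17916434-17916964) read 253 and 314 RPKM at 40 h, 121 and 97.1 at 60 h, then 29.3 and 31.5 at 72 h. Its RNA read 23.2 and 37.6, then 6.77, 8.88 and 7.84, then 17 and 18.2 RPKM, so RNA rose by 1.08 from 60 h to 72 h (adjusted p = 0.00313) as the promoter closed further by 1.80 (adjusted p = 0.0049). Over the whole span Rim did not move apart, since its RNA was lower in both 72 h libraries than in both 40 h libraries. Voltage-gated channel genes rose in 19 of 27 cases, with 19 of 33 promoter peaks closed and 1 opened (11 against 3 and 11 against 8 under the other scalings). Transmitter receptor promoters closed at 24 of 40 peaks and opened at 2 (19 against 3 and 17 against 4), with RNA rising for 11 of 31 genes and falling for 7.

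The remaining lists had these counts. Promoters of dpr and DIP genes, immunoglobulin recognition proteins, closed at 15 of 21 peaks and opened at none, and those of beat and side genes at 10 of 15 and none. Axon growth and cytoskeleton genes had 39 closings and 4 openings in 68 peaks, and their RNA fell for 31 of 52. Heat shock genes had 11 closings in 24 peaks, led by Hsp23, which went from 289 and 358 to 40.9 and 38.5 RPKM as its RNA fell by 5.65. Under the other scalings these 4 lists had 9 closings against 1 opening and 8 against 1, 6 against 0 and 4 against 0, 28 against 9 and 9 against 6, and 6 against 0 and 5 against 6. Cytosolic ribosome promoters closed at 9 of 58 peaks and opened at 2 (1 against 10 and 2 against 9, so the sign turned), proteasome promoters closed at 1 and opened at 2 of 22, and translation factor promoters closed at 5 and opened at 2 of 34. Their RNA fell for 12 of 59, 14 of 22 and 18 of 32 genes and rose for 4, none and 5. The other scalings gave proteasome promoters 0 closings against 5 openings and 0 against 1, and translation factor promoters 3 against 9 and 0 against 8, so that balance turned too.

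**Figure D4:**
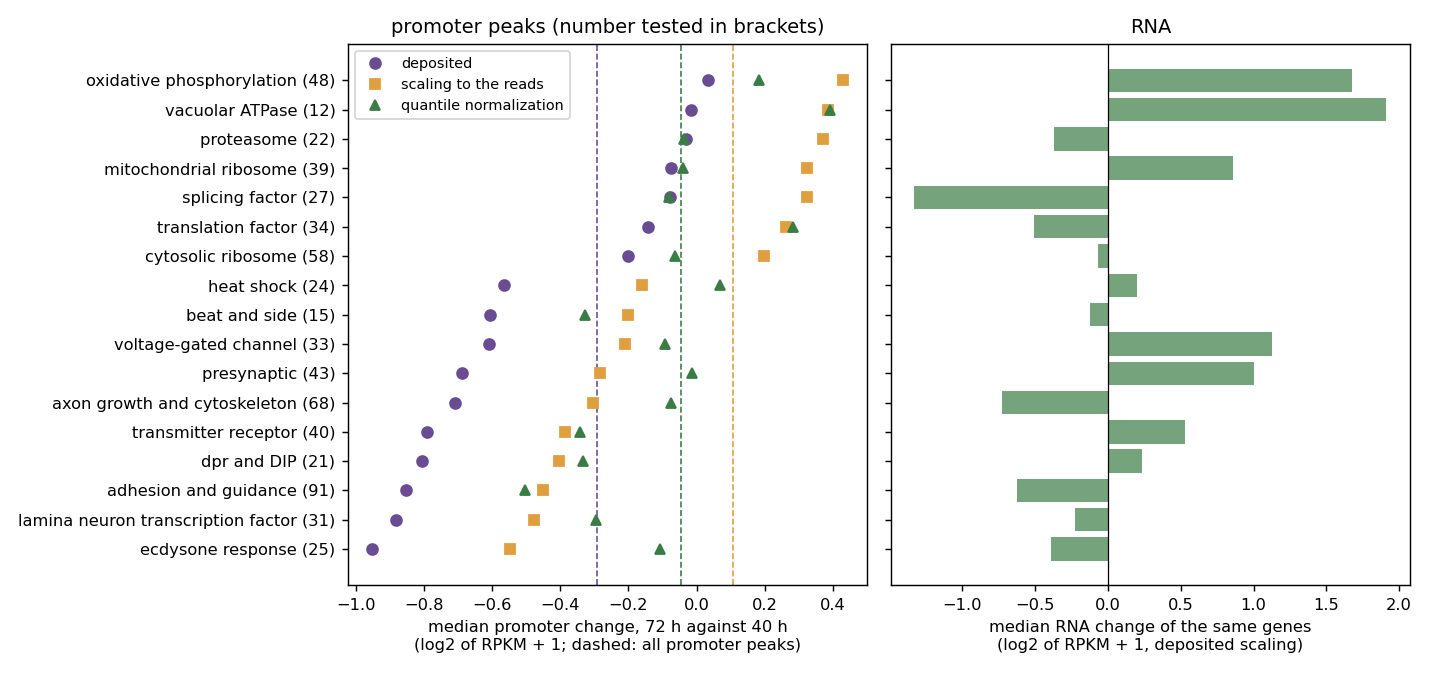
Median promoter change of each gene list, 72 h against 40 h (left, log2 of RPKM + 1, number of peaks tested in brackets), under the deposited scaling (circles), scaling to the reads (squares) and quantile normalization (triangles), with dashed lines at the medians of all promoter peaks, −0.29, 0.11 and −0.05. Bars (right) are the median RNA change of the same genes, 1.67 for oxidative phosphorylation and −1.33 for splicing factors, whose promoter medians were 0.03 and −0.08.

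In the ecdysone cascade, a steroid-driven programme of nuclear receptors that times pupal development, ftz-f1, Hr3 and Eip75B had promoter peaks that moved in opposite directions. A scaling factor of a library largely cancels in the difference between promoter peaks of the same gene. This comparison, and the pairs named, were chosen after the values were seen. Among 549 pairs of promoter peaks in 391 genes, 159 pairs changed differently from 40 h to 60 h (29.0%), 13 from 60 h to 72 h (2.37%) and 231 over the whole span (42.1%). The first count was 87 and 73 without 40 h replicates 1 and 2 and 73 without 60 h replicate 2, and the last was 143 and 122 without 40 h replicates 1 and 2. The middle count ranged from 0 to 25, at 0 without either 40 h or either 60 h replicate, 25 without 72 h replicate 1 and 1 without 72 h replicate 2. Where such a pair differed, 1 peak opening and the other closing was the case in 6 pairs of 5 genes (CG32264, ftz-f1, kmr, shep and vri) from 40 h to 60 h, and in 26 pairs of 22 genes over the whole span. Most of these 22 genes lay outside the ecdysone gene list. From that list EcR, Eip63E, Eip74EF and Eip93F, which also had 2 or more promoter peaks, were not among the 22. Opening and closing here are the calls of each peak under the deposited scaling, in which the library factor does not cancel. The numbers of such pairs under the other scalings are not given here.

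ftz-f1, a nuclear receptor gene, showed this in the earlier step. Its peak at 3L:18765310-18766188 read 44.9 and 58.1 RPKM at 40 h, 190.2 and 152 at 60 h, then 111 and 97.9 at 72 h. The peak at 3L:18800783-18801648 read 77.2 and 90.2, then 47.3 and 36.4, then 34.2 and 36.5 RPKM. In every 40 h library the latter peak was the higher and in every later library the former, while the RNA of ftz-f1 rose by 5.08 from 40 h to 60 h. Their log2 changes from 40 h to 60 h were 1.71 and −0.99, and they differed by 2.70 (SE 0.16, adjusted p = 0.00014). The fall of the latter was lost without 40 h replicate 2 (adjusted p = 0.0982) and under quantile normalization (adjusted p = 0.0507).

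Hr3, a nuclear receptor that acts upstream of ftz-f1, had a peak at 2R:10233506-10234980 that read 29.2 and 35.5 RPKM at 40 h, 126 and 126 at 60 h, then 94.9 and 111 at 72 h. Its other promoter peak, at 2R:10227683-10228498, read 205 and 273, then 192 and 182, then 109 and 104.3 RPKM. They differed in change by 2.78 over the whole span (SE 0.17, adjusted p = 0.000121). Hr3 RNA was low throughout, from 2.06 to 8.67 RPKM, and its fall to 72 h (adjusted p = 0.0202) was lost without 40 h replicate 2 (adjusted p = 0.167) and without 72 h replicate 1 (adjusted p = 0.0943). For Eip75B, an early ecdysone-response nuclear receptor whose RNA fell by 2.44, the peak at 3L:18025996-18026217 rose from 26.8 and 27.1 RPKM to 70.0 and 61.9 at 72 h. Its peaks at 3L:17970961-17971702 and 3L:18064539-18065132 closed by 1.39 and 1.99.

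Of all 25 promoter peaks of the ecdysone list, 3 opened and 19 closed from 40 h to 72 h (4 and 16 scaled to the reads, 6 and 8 by quantile normalization), and 3 of 15 genes rose in RNA while 7 fell. Those that opened were the ftz-f1, Hr3 and Eip75B peaks just given. Hr4, another nuclear receptor of the cascade, had RNA of 229 and 301 RPKM at 40 h and 35.7 and 27.4 at 72 h, and its promoter fell from 94.5 and 108 to 44.3 and 31.1 RPKM. The 3 promoter peaks of Eip63E, a cyclin-dependent kinase gene, closed while its RNA rose by 2.58, but the smallest of these closings (−0.57, the peak that starts at 3515731) was lost when scaled to the reads (adjusted p = 0.291) and had a change of 0.28 under quantile normalization. The promoter peaks of EcR, the ecdysone receptor gene, changed by −1.04, −0.86 and −0.22, of which the last did not pass the test, and the first and second did not under quantile normalization (adjusted p = 0.0952 and 0.713).

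Outside that list, kmr had peaks at 3R:13714726-13715509 and 3R:13735376-13735811 that went from 41.4 and 46.5 to 106 and 113 RPKM and from 54.0 and 65.3 to 18 and 17.7 RPKM between 40 h and 60 h, as RNA rose by 4.2. The other rdgB promoter peak, at X:13761569-13763085, fell from 137 and 171 RPKM at 40 h to 89.0 and 60.8 at 72 h while the peak described above rose, and the difference in change was 3.50 (SE 0.24, adjusted p = 0.00013). That fall by itself (adjusted p = 0.00296) was lost under quantile normalization (adjusted p = 0.181) and without 40 h replicate 2 (adjusted p = 0.0516). cno opened at 3R:5198033-5198898 from 19 and 20 RPKM to 103.8 and 109 at 72 h, while its other peak changed by −0.33 (adjusted p = 0.257). shep, which encodes an RNA-binding protein and has 5 promoter peaks, opened at 1 of them, from 34.6 and 33.5 to 63.3 and 60.9 RPKM, and closed at the other 4. RNA was measured per gene, so the transcripts of these promoters cannot be told apart.

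**Figure D5:**
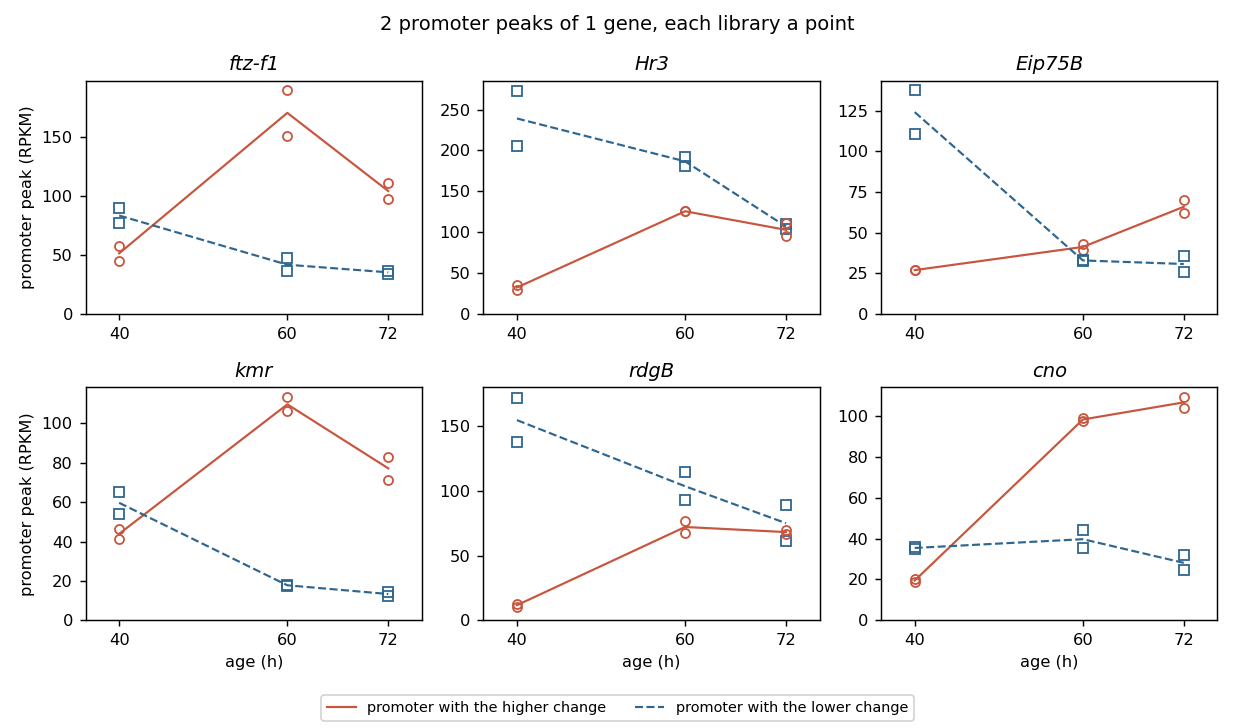
Levels in RPKM of 2 promoter peaks of the same gene against age in h for 6 genes; each symbol is a library, lines join the means, circles with a solid line mark the peak with the higher change and squares with a dashed line the other. In ftz-f1 and kmr the order of the peaks exchanged between 40 h and 60 h, with kmr at 106 and 113 RPKM against 18 and 17.7 at 60 h.

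Changes of a gene's RNA and of its peaks were also set side by side by distance from the start site, as a description. Spearman's rho between RNA change and the mean change of a gene's peaks, 60 h against 40 h, was 0.24 for promoter peaks (4525 genes), 0.29 within 2 kb (1091 genes), 0.36 from 2 to 10 kb (1033 genes) and 0.46 beyond 10 kb (689 genes). For 72 h against 40 h the values were 0.17, 0.27, 0.32 and 0.37, and for 72 h against 60 h they were 0.11, 0.23, 0.27 and 0.26. Pearson's r, 60 h against 40 h, was 0.34 for promoter peaks, 0.32 within 2 kb, 0.38 from 2 to 10 kb and 0.44 beyond 10 kb. Promoters were thus not the lowest by that measure in this comparison. They were the lowest for 72 h against 40 h, at 0.28 beside 0.31, 0.32 and 0.37. For 72 h against 60 h they were also the lowest, at 0.24 beside 0.29, 0.27 and 0.30. These classes hold different genes and numbers of peaks per gene, and the difference between them was not tested.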

How the data were processed

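Bulk ATAC-seq and RNA-seq of sorted L1 neurons were measured in 6 and 7 libraries. Values were deposited by the authors as RPKM per peak and per gene in tables of the whole series, and the deposited distances to the start site and peak widths were used as given. Per the submitters' processing notes, Bowtie2 2.2.9, MACS2 2.1.1, bedtools and edgeR 3.26.8 were used, with Cell Ranger 3.1.0 and Seurat 3.1.2 also named; their roles, and the genome build of the coordinates, are not given in the sources used here. Peaks form 1 list for all libraries. ATAC values are called RPKM from the values, since level times width gave whole reads at 1 step per library (tolerance 0.1 reads); RNA values gave whole reads for 7074 genes (tolerance 0.01).

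Values were tested as log2(RPKM + 1) with limma 3.58.1 (R 4.3.3), 1 fit over the 3 ages per assay with a trended prior and Benjamini-Hochberg adjustment over 23508 peaks or 6939 genes, leaving out the lowest 10% of peaks by mean level and genes that reached 1 RPKM in fewer than 2 libraries. Residual degrees of freedom were 3 and 4. Differences between promoter peaks of 1 gene were fitted likewise, adjusted over 549 pairs. Single values were compared with exact permutation tests over all labelings of the libraries. The fits were also run on simulated data with known changes. Tables and figures were made with Python 3.11.15, numpy 2.4.6, pandas 2.3.3, scipy 1.17.1 and matplotlib 3.10.9.

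The members, the gene lists and the rule for named genes (the largest promoter changes with RNA moving the same or the other way, the largest RNA changes over uncalled promoters within 0.25 of no change, the 2 largest promoter changes of each list, and all of the ecdysone list, from which those printed were taken) were chosen with earlier results of these data known; the pairs named and the limits of the silent-gene groups were chosen after the values were seen. Alternatives were other scalings, filters and pseudocounts, voom weights on the recovered reads, a replicate block and leaving out each library. Motif counts were not run, since no promoter sequence was used here. Overlap of a peak with another gene was read from the Release 6 gene table used for names only.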

Additional observations from a re-analysis of the deposited data

How the results depend on the processing

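The counts of opened and closed promoters moved with the scaling, with single libraries and with a replicate block. Quantile normalization gave 297 opened and 156 closed from 40 h to 60 h, 23 opened from 60 h to 72 h, and 593 and 588 over the whole span; scaling to the reads gave 473 opened, then 10 and 75, then 1010 and 848. Same-numbered ATAC libraries deviated with r of −0.47 (40 h and 60 h), −0.11 (40 h and 72 h) and 0.55 (60 h and 72 h), so the numbers did not pair libraries over all 3 ages, while those of 60 h and 72 h deviated together. With a replicate block, 139 promoters opened and 324 closed from 40 h to 60 h, 4 and 150 from 60 h to 72 h, and 178 and 1508 over the whole span; pairs called from 60 h to 72 h rose to 49. A crossed replicate block, with the 40 h numbers swapped and added after the data were seen, gave 258 and 791, then 15 and 819. Its pairing follows the deviations of these same libraries, so it is not an independent check. For RNA, scaling to the reads gave 1609, 1298 and 2113 genes that fell, and leaving out both 60 h replicates 1 and 2, also added later, gave 638 that fell from 40 h to 60 h and 361 higher and 356 lower from 60 h to 72 h. The share with the same direction was 87.5% and 76.9% with quantile normalization, and 67.0% and 73.3% over the whole span with ATAC or RNA scaled to the reads. Summing level times width gave a rho of 0.17 at 72 h.

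Leaving out 1 library at a time gave, from 40 h to 60 h, 73 to 157 opened and 118 to 598 closed promoters, 1085 to 1267 risen and 773 to 1054 fallen genes, and 73 to 178 pairs. From 60 h to 72 h the ranges were 1 to 10, 29 to 504, 498 to 818, 603 to 870 and 0 to 25. Over the whole span they were 96 to 252, 791 to 1711, 1251 to 1401, 1145 to 1336 and 122 to 255. The share with the same direction, without either 60 h ATAC library, was 74.5% to 87.9%, 72.1% to 92.0% and 61.3%; the exact permutation p was 0.200 to 0.867 for the share of reads and 0.200 to 0.667 for the median difference. That share of 61.3% over the whole span could hardly move, since the change from 40 h to 72 h does not use the 60 h levels. The 40 h and 72 h ATAC libraries were not left out for the share with the same direction. Under quantile normalization the sign turned for ATAC from 40 h to 72 h at Eip63E (0.28), mRpL34 (0.14) and tai (0.31), and for RNA at ATPsynC from 60 h to 72 h (-0.080) and at Argk from 40 h to 72 h (-0.088). The causes were not tested.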
